A study of Mus musculus with 3 samples.

Results

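The collagen genes were described in single-cell transcriptomes of sorted adult mouse heart endothelium cultured with embryonic stroma. A gene was a member when its mouse symbol consisted of Col, a number, a and a number, which held for 44 of the 27,994 genes of the count table. They comprised 11 fibrillar collagens, 8 collagens of basement membranes (types IV, XV and XVIII) and 25 others, among them the beaded filament (type VI), fibril-associated, network-forming and transmembrane collagens. *Col21a1* has no row in the count table and was not analysed here.

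The endothelial cells came from hearts of 12–16-week-old female GFP transgenic mice, as the study's methods state. The sort took cells positive for GFP, CD31 and VE-Cad and negative for PDGFRA (at the start also for CD41, CD45 and PDGFRB), either fresh (0 h) or after 24, 48, 72 or 96 h in a co-aggregate with *Mesp1*der PSCs. These stromal cells were sorted from the aorta–gonad–mesonephros (AGM) region of E11.5 embryos as cells positive for DsRed and PDGFRA and negative for the endothelial and blood markers and PDGFRB, where DsRed marks descendants of *Mesp1*-expressing mesoderm. The culture medium held serum, IL-3, SCF and Flt3L. Cells of all times were mixed into 3 pools, which form 1 group, so no untreated group can be set apart and no value below belongs to a single time.

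Collagens are secreted proteins in which 3 chains wind into a triple helix. Fibrillar collagens such as types I, II, III, V and XI assemble into the fibres of connective tissue, cartilage and vessel walls. Type IV collagen forms the sheet on which endothelial cells rest, and types XV and XVIII carry heparan or chondroitin sulphate chains in or beside that sheet and release the fragments restin and endostatin. In the heart, capillary endothelium is a known source of type IV collagen and fibroblasts are the main known source of types I and III.

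The pairs of type IV genes lie head to head in the mouse genome, and the arrangement is shown here because *Col4a1* and *Col4a2* had similar profiles over the clusters. On GRCm38, *Col4a1* (ENSMUSG00000031502, chr8:11198423-11312826, minus strand) and *Col4a2* (ENSMUSG00000031503, chr8:11312805-11449287, plus strand) have start sites 21 bases apart, and their promoter windows overlap by 78 bases. *Col4a3* and *Col4a4* start 72 bases apart on chromosome 1, and *Col4a5* and *Col4a6* start 1,309 bases apart on the X chromosome. *Col3a1* (ENSMUSG00000026043, chr1:45311538-45349706, plus strand) and *Col5a2* (ENSMUSG00000026042, chr1:45374321-45503282, minus strand) lie tail to tail with 24,614 bases between them. RefSeq windows (GRCm38.p6) from 250 bases before to 50 bases after a start site were at hand for 35 of the 44 collagens. They are printed for 5 genes on which the results turn, in the direction of transcription, with the letters CCAAT or their reverse complement ATTGG in capitals. *Col4a2* lies at chr8:11312555-11312854 on the plus strand, *Col18a1* at chr10:77166481-77166780 on the minus strand, *Col15a1* at chr4:47207762-47208061 on the plus strand, *Col1a2* at chr6:4505368-4505667 on the plus strand and *Col3a1* at chr1:45311288-45311587 on the plus strand.
Col4a2: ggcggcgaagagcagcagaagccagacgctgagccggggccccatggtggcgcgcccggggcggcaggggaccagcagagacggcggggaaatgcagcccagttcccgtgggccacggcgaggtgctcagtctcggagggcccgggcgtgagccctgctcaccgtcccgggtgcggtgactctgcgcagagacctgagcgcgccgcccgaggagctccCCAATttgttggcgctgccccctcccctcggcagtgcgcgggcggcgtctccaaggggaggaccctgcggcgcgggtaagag
Col18a1: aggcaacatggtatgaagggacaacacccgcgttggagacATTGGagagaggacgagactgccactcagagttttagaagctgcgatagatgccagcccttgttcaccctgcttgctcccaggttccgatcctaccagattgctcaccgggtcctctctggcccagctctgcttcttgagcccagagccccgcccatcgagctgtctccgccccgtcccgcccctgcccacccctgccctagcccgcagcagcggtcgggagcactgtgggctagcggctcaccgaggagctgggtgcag
Col15a1: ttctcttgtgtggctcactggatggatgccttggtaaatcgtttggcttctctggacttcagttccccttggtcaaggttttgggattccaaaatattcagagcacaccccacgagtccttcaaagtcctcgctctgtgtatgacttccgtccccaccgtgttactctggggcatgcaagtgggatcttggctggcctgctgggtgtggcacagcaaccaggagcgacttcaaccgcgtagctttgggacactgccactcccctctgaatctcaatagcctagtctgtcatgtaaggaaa
Col1a2: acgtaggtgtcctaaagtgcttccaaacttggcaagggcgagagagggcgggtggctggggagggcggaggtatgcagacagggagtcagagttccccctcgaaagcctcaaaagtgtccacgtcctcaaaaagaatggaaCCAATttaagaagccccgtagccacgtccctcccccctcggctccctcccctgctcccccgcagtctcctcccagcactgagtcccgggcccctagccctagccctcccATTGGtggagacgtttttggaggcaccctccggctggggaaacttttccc
Col3a1: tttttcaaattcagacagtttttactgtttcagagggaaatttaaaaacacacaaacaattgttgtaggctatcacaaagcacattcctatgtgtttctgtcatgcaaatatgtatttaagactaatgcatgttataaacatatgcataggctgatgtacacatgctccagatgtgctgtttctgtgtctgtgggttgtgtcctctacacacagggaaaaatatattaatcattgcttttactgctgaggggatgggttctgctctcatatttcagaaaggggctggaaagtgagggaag
The letters CCAAT, read on both strands, occurred in 34.2% of the 38 collagen windows and in 37.4% of all 32,851 windows. GGGCGG occurred in 60.5% of the collagen windows against 35.7% of all, among them those of *Col4a1*, *Col4a2*, *Col18a1* and *Col1a2*. TATAAA occurred in 13.2% against 13.6%, and *Col3a1* was among the 5 collagens that held it. A match of letters is a description and not a binding site. The printed *Col1a2* window begins at 4505368, past the GENCODE start of that gene at 4504814.

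The data hold 3 libraries, told apart by a suffix on the barcodes and not tied to the pools by the labels, with 2,097 to 3,958 cells each, medians of 13,440.5 to 38,312 UMIs per cell, and 9,562 cells with 252,339,042 UMIs in all. Between the libraries 13 barcode sequences recurred. A UMI counts 1 captured molecule at its 3′ end whatever the length of the transcript, so levels are given as UMIs per 10,000 UMIs of a group of cells and are not divided by gene length. The authors sorted the cells into 7 clusters, numbered from high *Cdh5* (VE-cadherin) to high *Runx1*, a regulator of blood formation. The 8 endothelial markers summed to 34.2–49.1 UMIs per 10,000 in clusters 0, 1 and 2 and to 3.94–6.23 in clusters 3, 4, 5 and 6, so the sorted cell type was borne out by its markers in the first 3 clusters only. Cluster 0 stood out by arterial markers (29.6, against 0.597–7.55 elsewhere), cluster 3 by germ and pluripotent cell markers (49.2, against at most 0.574), cluster 5 by macrophage (14.8) and neutrophil markers (10.75) and cluster 6 by megakaryocyte markers (200.5). In cluster 4 the fibroblast or stromal markers (all 9 detected, 8.22), the pericyte or smooth muscle markers (all 8 detected, 15.97) and the epithelial markers (all 5 detected, 4.01) were highest, as were the cardiomyocyte (5 of 6 detected, 3.71), chondrocyte (all 6 detected, 1.52) and mesothelial markers (all 4 detected, 0.838). Y-linked genes had UMIs in 53.1–62.3% of the cells of every cluster and *Xist* in 27.3–47.5%, with both in 5.38–13.8%. The heart donors are stated to be female, whereas the sex of the embryos that gave the stroma is not stated. The source of the Y-linked UMIs was not tested. There was 1 sample group and the clusters were made from these same counts, so differences between clusters are descriptions without a test, with intervals at the 95% level that cover counting error only.

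Collagens held 0.152% of all UMIs, or 383,301 molecules. Basement membrane collagens made up 326,811 of them, fibrillar collagens 40,623 and the others 15,867. *Col4a1*, *Col4a2* and *Col18a1* alone held 80.5%. Summed over all collagens, clusters 0, 1, 2 and 4 reached 39.5, 26.2, 18.2 and 31.8 UMIs per 10,000 and clusters 3, 5 and 6 reached 2.23–3.50. The 3 endothelial clusters and cluster 4 thus differed less in the amount of collagen than in its kind. Basement membrane collagens were 91.2%, 95.8% and 92.7% of collagen UMIs in clusters 0, 1 and 2 and 20.4% in cluster 4, where 64.9% were fibrillar. Of the 24 collagens that reached 0.01 UMIs per 10,000 over all cells (8 fibrillar, 5 basement membrane and 11 others), 17 were highest in cluster 4, 5 in cluster 0 and 2 in cluster 2. A member that reached this level only through the cluster in which it was high had to differ, and 14 of the 20 below it were also highest in cluster 4.

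**Figure D1:**
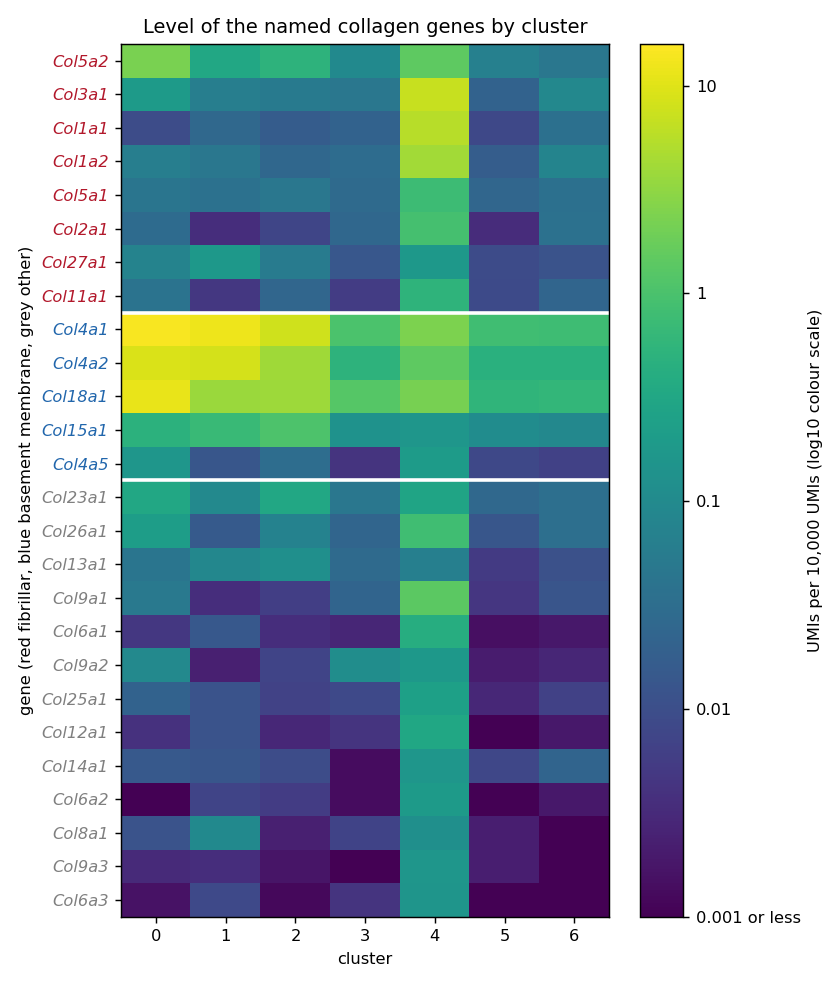
Level of each of the 26 collagens with at least 0.1 UMIs per 10,000 in a cluster (rows, by class) in each of the 7 clusters (columns), as UMIs per 10,000 UMIs on a log colour scale. *Col4a1*, *Col4a2* and *Col18a1* are bright in clusters 0, 1 and 2, whereas most fibrillar and other collagens are brightest in cluster 4.

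**Figure D2:**
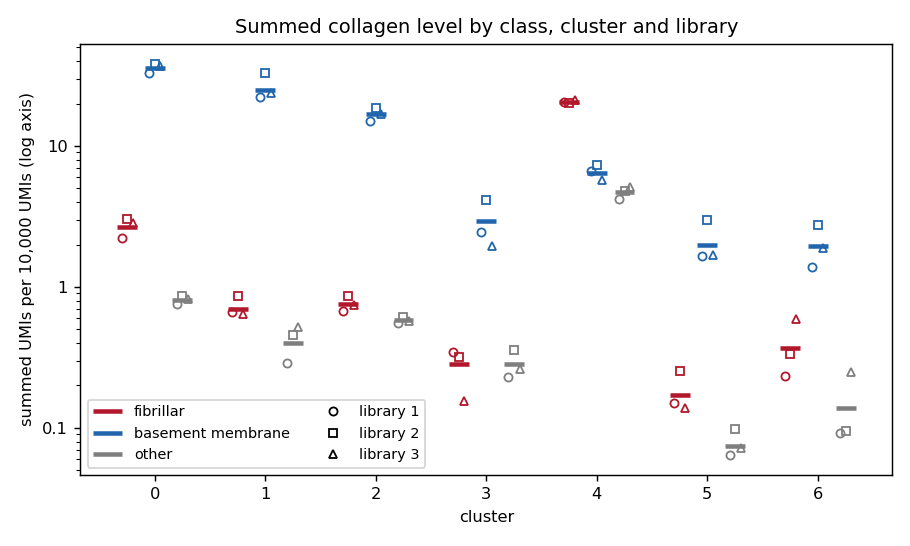
Summed level of the fibrillar, basement membrane and other collagens per cluster, in UMIs per 10,000 UMIs on a log axis, with lines for all cells and points for the 3 libraries. Basement membrane collagens lie above fibrillar collagens in every cluster except cluster 4, where the fibrillar sum is 20.2–21.2 in the libraries.

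*Col4a1* and *Col4a2*, which encode the chains of the common type IV network, were highest in cluster 0. *Col4a1* reached 13.5, 15.5 and 14.8 UMIs per 10,000 in libraries 1, 2 and 3 of cluster 0. The values were 10.8, 15.9 and 11.9 in cluster 1, and 7.06, 8.68 and 7.90 in cluster 2. The libraries of clusters 0 and 1 overlapped, and both lay above those of cluster 2. *Col4a2* followed it, with 9.09 (95% Poisson interval 8.92–9.26), 8.41 (8.22–8.61) and 4.05 (4.02–4.08) in the same 3 clusters. In clusters 3 to 6 *Col4a1* lay between 0.784 and 2.39 and *Col4a2* between 0.461 and 1.44. The *Col4a1* to *Col4a2* UMI ratio ran from 1.46 (1.42–1.51) in cluster 1 and 1.60 (1.57–1.64) in cluster 0 to 1.94 in clusters 2 and 3. The ratio of these head-to-head genes thus varied less than *Col4a1* itself, which ran from 0.784 to 14.6. It was not constant, since the libraries of cluster 1 (1.43, 1.48 and 1.49) lay below those of cluster 2 (1.98, 1.89 and 1.95).

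To compare shares of cells at equal depth, every cell was drawn down to 5,000 UMIs, which kept 745 of the 799 cells of cluster 1 and 5,377 of the 5,396 of cluster 2. *Col4a1* was then found in 96.3%, 89.1% and 94.1% of cells of clusters 0, 1 and 2 (99.2%, 92.5% and 98.8% at full depth) and 48.8% of cluster 4. In cluster 5, whose leading genes are those of blood cells, the share was 26.7%. At the same depth the median cell held 11 type IV UMIs in cluster 0, 9 in cluster 1 and 6 in cluster 2. Cells without a type IV UMI made up 7.25% of cluster 1 and 1.25% of cluster 0.

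The minor type IV chains followed another order. *Col4a5*, a chain of the network found in kidney and smooth muscle basement membranes, was highest in clusters 0 and 4, at 0.160 (0.138–0.183) and 0.199 (0.175–0.226), with 0.0322 and 0.0131 in clusters 2 and 1. Its libraries in cluster 0 (0.153, 0.198 and 0.132) overlapped those of cluster 4 (0.159, 0.275 and 0.192) and lay above those of all other clusters. *Col4a6*, its head-to-head neighbour, had 208 UMIs in all and was highest in cluster 4 at 0.0583, with 0 UMIs in cluster 1, which allows a level of up to 0.00357. *Col4a4* and *Col4a3*, chains of the kidney filter, had 66 and 14 UMIs and both were highest in cluster 1, at 0.0321 and 0.00594.

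*Col18a1*, the source of endostatin, was highest in cluster 0. Its level was 10.7, 11.96 and 12.2 in the libraries of cluster 0. The libraries of cluster 1 gave 3.23, 5.21 and 3.15 and those of cluster 2 gave 3.45, 4.13 and 3.94. Every library of another cluster lay below those of cluster 0, while clusters 1 and 2 overlapped. *Col15a1*, its close relative, went the other way, with 0.399, 0.676 and 0.470 in the libraries of cluster 0, against 0.930, 1.23 and 0.998 in those of cluster 2 and 0.673, 0.953 and 0.571 in those of cluster 1. Libraries of cluster 2 lay above those of cluster 0 throughout, and only 1 library of cluster 1 reached them. The *Col18a1* to *Col15a1* ratio therefore ran from 22.9 (21.1–24.8) in cluster 0 to 5.18 (4.74–5.67) and 3.66 (3.60–3.73) in clusters 1 and 2. *Col15a1* was found in 36.0% of cells of cluster 2 and 15.4% of cluster 0 at 5,000 UMIs, and *Col18a1* in 81.5% and 97.8%. Of the windows printed above, the one of *Col18a1* holds GGGCGG and 1 ATTGG and the one of *Col15a1* holds neither. The *Col15a1* window ends at 47208061, before the GENCODE start of the gene at 47208161. Any link of these letters to the levels was not tested.

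**Figure D3:**
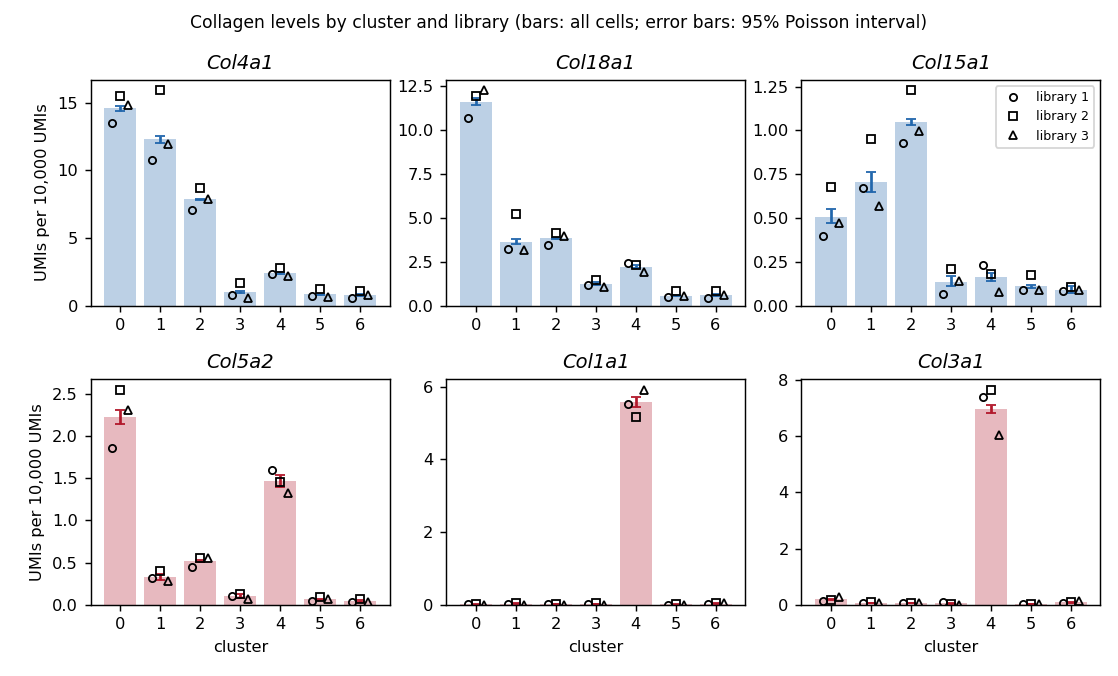
Levels of 6 collagens in each cluster, in UMIs per 10,000 UMIs, with bars for all cells, 95% Poisson intervals and 1 point per library. *Col18a1* and *Col5a2* peak in cluster 0, *Col15a1* in cluster 2, and *Col1a1* and *Col3a1* are near 0 outside cluster 4.

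Among the fibrillar collagens, *Col1a1* and *Col1a2* (type I, the main protein of fibrous tissue) and *Col3a1* (type III, of elastic tissues and vessels) belonged to cluster 4. *Col1a1* (ENSMUSG00000001506, chr11:94936224-94953042, plus strand) stood at 5.52, 5.17 and 5.92 UMIs per 10,000 in the libraries of cluster 4. In the other 6 clusters its level was 0.00819 to 0.0353. *Col3a1* stood at 7.402, 7.66 and 6.06 in the libraries of cluster 4 and at 0.0208 to 0.192 elsewhere. *Col1a2* stood at 4.13 (4.02–4.25) in cluster 4 and 0.0172 to 0.0798 elsewhere. At 5,000 UMIs per cell *Col3a1* was found in 61.3% (57.0–65.6%, exact binomial), *Col1a2* in 45.5% and *Col1a1* in 43.6% of cells of cluster 4. The share for *Col1a1* was 0.383–1.62% in the other clusters (at full depth 62.7% in cluster 4 and 1.24–3.87% elsewhere).

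*Col5a2*, a chain of the type V collagen that nucleates fibrils, was the exception. Its level was highest in cluster 0, at 1.86, 2.55 and 2.31 in the libraries, with 1.59, 1.46 and 1.33 in cluster 4 and 0.448, 0.555 and 0.549 in cluster 2. The libraries of the 3 clusters did not overlap. It was found in 54.3% of cells of cluster 0 and 29.9% of cluster 4 at 5,000 UMIs. Its partner chain *Col5a1* did not share this profile, with 0.756 (0.707–0.807) in cluster 4 and 0.0241 to 0.0470 elsewhere. Per *Col5a1* UMI there were 52.8 *Col5a2* UMIs in cluster 0 (40.3–70.7), against 11.0 and 1.94 in clusters 2 and 4. *Col3a1*, the tail-to-tail neighbour of *Col5a2*, was at 0.119, 0.167 and 0.290 in the libraries of cluster 0, above every library of cluster 2 (0.0468–0.0619), but 11.6 *Col5a2* UMIs fell to each *Col3a1* UMI there against 0.210 in cluster 4.

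The cartilage collagens *Col2a1* (type II) and *Col11a1* (type XI) were highest in cluster 4 as well, at 0.929 (0.875–0.986) and 0.530 UMIs per 10,000. *Col27a1*, a fibrillar collagen of developing cartilage, was at 0.171 (0.144–0.202) in cluster 1 and 0.175 (0.152–0.2004) in cluster 4, with overlapping intervals, against 0.0567 in cluster 2. The 3 remaining fibrillar collagens, *Col5a3*, *Col11a2* and *Col24a1*, had 151, 119 and 19 UMIs in all.

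Of the 25 other collagens, the transmembrane *Col23a1* and *Col13a1* were the most abundant in cluster 2. *Col23a1* was at 0.301, 0.344 and 0.334 in the libraries of cluster 2, 0.284, 0.371 and 0.336 in cluster 0 and 0.243, 0.385 and 0.273 in cluster 4, which overlapped, and at 0.0951 in cluster 1. *Col13a1* was at 0.124, 0.125 and 0.124 in cluster 2 and 0.0495, 0.0209 and 0.0556 in cluster 0, without overlap. *Col26a1*, an emilin-related collagen, fell off from 0.810 in cluster 4 to 0.218 and 0.0725 in clusters 0 and 2. *Col8a1*, a network-forming collagen of vessel walls, was found mainly in cluster 4 (0.122) and cluster 1 (0.0975), and its libraries in cluster 1 ran from 0.0360 to 0.188.

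The fibril-associated *Col9a1*, *Col9a2* and *Col9a3* encode the 3 chains of type IX collagen, which coats cartilage fibrils. *Col9a1* was at 1.37 (1.31–1.44) in cluster 4, and at 0.0501 or less elsewhere. *Col9a2* reached 0.172, 0.115 and 0.0938 in clusters 4, 3 and 0, whereas *Col9a1* was at 0.0224 in cluster 3. The chains were thus out of step, with 0.195 *Col9a1* UMIs per *Col9a2* UMI in cluster 3 and 7.97 in cluster 4. The beaded filament chains *Col6a1*, *Col6a2* and *Col6a3* were at 0.411, 0.195 and 0.157 in cluster 4, and the fibril-associated *Col12a1* and *Col14a1* and the transmembrane *Col25a1* at 0.316, 0.160 and 0.243. *Col6a3* and *Col9a3* (0.158) nevertheless stayed under the minimum over all cells and enter no comparison below. The 18 collagens that stayed under 0.1 UMIs per 10,000 in every cluster had 3 to 208 UMIs each over all cells. Among them *Col7a1*, the anchoring fibril collagen of skin, and *Col8a2*, *Col16a1*, *Col17a1*, *Col19a1*, *Col20a1*, *Col22a1* and *Col28a1* had 16 to 148. The lowest were *Col6a5* with 3, *Col10a1* with 4, *Col6a4* with 5 and *Col6a6* with 8 UMIs.

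Each cluster was then set against cluster 2, the largest, as a common reference. A gene was called higher or lower when its level differed at least 2-fold and in the same direction in each library, and the 6 comparisons share the cells of cluster 2. Of all 91 calls of collagens in them, 6 rest on at most 3 UMIs in the cluster, namely *Col6a2* in clusters 0 and 3, *Col2a1* in cluster 1, *Col4a5* and *Col14a1* in cluster 3 and *Col9a2* in cluster 6.

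In cluster 0, 12 of the 24 collagens were higher and 3 lower, beside 11.2% higher and 4.15% lower among all genes. The median log2 ratio was 1.03 for the collagens and 0.12 for all genes. *Col5a2* was 4.30-fold (log2 2.10, 95% interval of counting error 2.04–2.17) and *Col18a1* 3.03-fold higher (log2 1.60, 1.57–1.62). *Col4a2* was 2.24-fold higher and *Col4a1*, at a log2 ratio of 0.89 (0.87–0.91), stayed short of 2-fold. *Col9a2* (12.9-fold, from 118 UMIs), *Col9a1* (8.27-fold, from 63 UMIs), *Col4a5* (4.95-fold) and *Col3a1* (3.51-fold) were also higher. *Col15a1* (log2 −1.04), *Col13a1* (log2 −1.53) and *Col6a2* were lower. *Col6a2* had 0 UMIs, for which 3 UMIs were taken, and its 2.36-fold difference rests on that floor. The upper 95% Poisson limit of its level was 0.00293, against a level of 0.00562 in cluster 2, which leaves its call uncertain. The fibrillar *Col1a1*, *Col5a1*, *Col11a1* and *Col27a1* were not called, at log2 −0.82, −0.16, 0.70 and 0.40.

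In cluster 1, 3 collagens were higher and 5 lower, beside 19.9% higher and 12.3% lower among all genes. *Col8a1* was 41.5-fold higher (log2 5.38, 4.78–6.005), *Col27a1* 3.02-fold and *Col4a2* 2.08-fold. Cluster 1 held 82 of the 295 UMIs of *Col8a1*, which stayed under the minimum without them. Its call in cluster 1 therefore carries no weight of its own. *Col23a1*, *Col26a1*, *Col4a5*, *Col11a1* and *Col2a1* were lower, by log2 −1.78, −2.23, −1.30, −2.36 and −1.08. Without library 1, 6 collagens were higher and 3 lower in cluster 1. Cluster 1 was led by the inflammatory genes *Il1a*, *Saa3* and *Csf3*. It also held macrophage markers at 3.30 UMIs per 10,000 (4.68, 4.01 and 0.781 in the libraries). The fibroblast gene *Dcn* was at 2.35, above its 1.39 in cluster 4, while *Col1a1* was at 0.0262. *Lum*, *Postn*, *Pdgfra*, *Twist1* and *Prrx1* lay at 16.7%, 5.11%, 2.26%, 1.70% and 1.625% of their level in cluster 4. All 9 fibroblast or stromal markers summed to 2.67 in cluster 1, against 8.22 in cluster 4. The part of the inflammatory, macrophage and fibroblast genes in the collagen values of cluster 1 was not tested.

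In cluster 4, 18 collagens were higher and 3 lower, beside 16.9% higher and 6.87% lower among all genes. The median log2 ratio was 4.27 against 0.20. All 8 fibrillar collagens and 9 of 11 others were higher, and 1 of 5 basement membrane collagens. Of the higher members, *Col2a1*, *Col6a1*, *Col6a2*, *Col8a1*, *Col9a1*, *Col12a1*, *Col14a1* and *Col25a1* passed the minimum only through their UMIs in cluster 4. These genes were bound to be high there, so their calls carry no weight of their own. A minimum of 0.05 left 9 collagens higher. The folds reached 331 for *Col1a1* (log2 8.37, 8.18–8.56), 227 for *Col9a1*, 165 for *Col1a2*, 127 for *Col3a1*, 123 for *Col2a1*, 115 for *Col6a1* and 108 for *Col12a1*. *Col5a2*, at 2.83-fold, and *Col27a1*, at 3.08-fold, had the lowest folds among the fibrillar collagens. *Col15a1* (log2 −2.68), *Col4a1* (−1.72) and *Col4a2* (−1.50) were lower, and *Col18a1* was not called at −0.79. *Col1a1*, *Col9a1*, *Col1a2* and *Col3a1* stand among the 10 genes with the highest ratio in cluster 4.

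**Figure D4:**
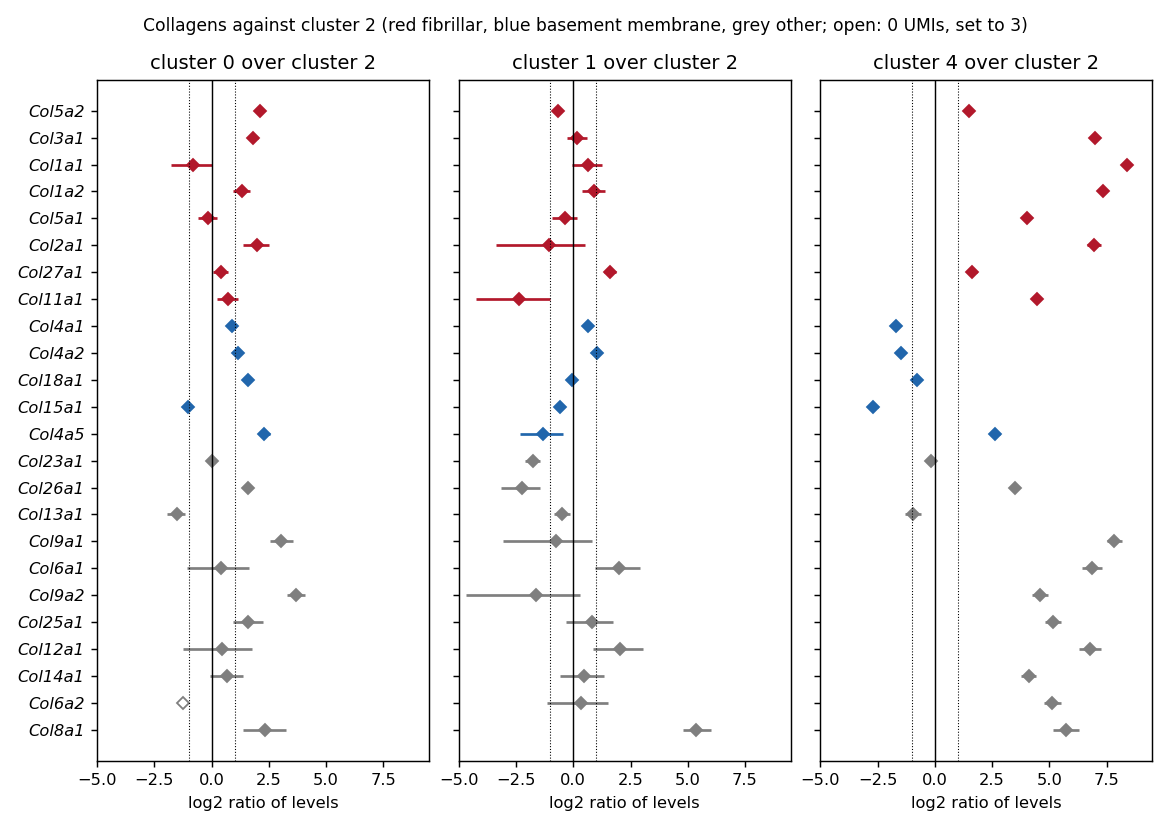
Log2 ratio of the level in clusters 0, 1 and 4 over that in cluster 2 for the 24 collagens that passed the minimum, with lines for 95% intervals of counting error, dotted lines at 2-fold and an open symbol where a cluster with 0 UMIs was set to 3. Most fibrillar and other collagens lie beyond 2-fold in cluster 4, and in cluster 0 *Col5a2*, *Col18a1* and *Col4a2* lie above and *Col15a1* below cluster 2.

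Clusters 3, 5 and 6 held little collagen. In cluster 3, 3 collagens were higher and 13 lower, beside 12.6% and 23.7% among all genes. *Col9a2* was 15.8-fold higher there, *Col9a1* 3.71-fold and *Col2a1* 3.34-fold, and all 5 basement membrane collagens were lower. In cluster 5, 0 collagens were higher and 18 lower, beside 12.4% and 18.6%, with *Col4a1* at a log2 ratio of −3.24 and *Col13a1* at −4.57. In cluster 6, 2 were higher (*Col1a2*, 3.18-fold, and *Col1a1*, 2.09-fold) and 11 lower, beside 11.4% and 20.0%. Without library 3, 0 collagens were higher in cluster 6, and without library 2, 4 were.

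The low values of clusters 3, 5 and 6 moved with those of endothelial genes. As a percent of their level in cluster 2, *Col4a1*, *Col4a2*, *Col15a1* and *Col18a1* lay at 8.70–32.1% in clusters 3, 5 and 6, and the 8 endothelial markers at 7.64–34.6%. *Col4a1* was at 18.8%, 14.4% and 12.6% in library 2 of these clusters and at 6.62–11.4% in the other libraries, and *Cdh5* at 22.6%, 17.3% and 14.0% in library 2 and 8.44–13.3% in the others. The part of free RNA or of mixed droplets in these values was not tested.

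The fibrillar collagens outside cluster 4 did not keep the proportions they had in it. In cluster 2, *Col1a1* was at 0.302% of its level in cluster 4, *Col3a1* at 0.786%, *Col5a1* at 6.22%, *Col11a1* at 4.62% and *Col5a2* at 35.3%. In cluster 0, *Col1a1* was at 0.171%, *Col3a1* at 2.76%, *Col11a1* at 7.49% and *Col5a2* at 152%. *Col1a1* and *Col1a2* had 1.35 UMIs of the first per UMI of the second in cluster 4 (1.30–1.40) and 0.152 to 0.682 in the other clusters. Single libraries of few UMIs reached the values of cluster 4 (1.19 or more in each library), with 1.25 in library 1 of cluster 1 and 1.57 in library 2 of cluster 3. *Col1a1* counted 12 to 237 UMIs in each of those clusters, and its highest shares of the cluster 4 level were in library 2 for 4 of the 6 other clusters.

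**Figure D5:**
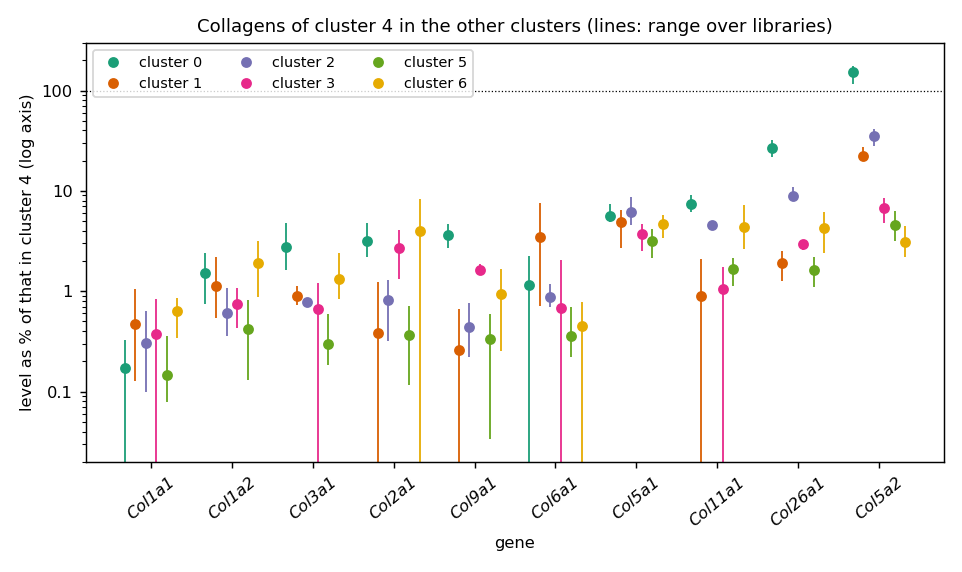
Level of 10 collagens in the 6 other clusters as a percent of their level in cluster 4 (log axis), with points for all cells and lines for the range over the libraries, which reach the lower edge where a library had 0 UMIs. Most collagens lie under 10%, type I and III under 5%, while *Col5a2* reaches 152% and *Col26a1* 26.9% in cluster 0.

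Within cluster 4 the collagens were unevenly spread over its 518 cells. At 5,000 UMIs the median cell held 4 fibrillar UMIs, the highest 163, and 14.3% held none, with 52.4% of fibrillar UMIs in the top 10% of cells. *Col1a1* was found in 62.1% of cells with *Col3a1* and 14.1% of cells without. *Col2a1* was found in 47.2% of cells with *Col9a1* and 16.2% without, and in 40.4% of cells with *Sox9*, a cartilage regulator, against 18.6% without. Types I and III thus co-occurred, as did types II and IX, whereas *Col1a1* was found in 38.6% of cells with *Col2a1* and 45.2% without. Cells with *Epcam*, an epithelial surface protein, had *Col1a1* in 12.8% (6 of 47) and cells without it in 46.7%. For *Krt8*, another epithelial gene, there was no such gap, with *Col1a1* in 42.1% of cells with it and 43.8% without. *Col1a1* was found in 41.6% of cells with *Cdh5* and 43.9% without.

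*Pdgfra* had UMIs in 254 of the 518 cells of cluster 4, although the sort was for cells without the protein. The split was made at full depth, where these cells had a median of 20,909 UMIs and the other 264 cells 17,357.5. In the cells with *Pdgfra* the fibrillar collagens summed to 24.6, 19.7 and 30.0 UMIs per 10,000 in the libraries. In the other cells they summed to 16.5, 21.0 and 10.3. The order thus turned in library 2. *Col9a1* (1.90 against 0.772), *Col26a1* (1.12 against 0.450) and *Col23a1* (0.404 against 0.156) were higher in the cells with *Pdgfra* and *Col18a1* (1.46 against 3.09) and *Col15a1* (0.0804 against 0.259) lower. Also at full depth, cells with a Y-linked UMI (279, median 20,168 UMIs) had *Col1a1* at 3.24. Those without (239, median 18,725 UMIs) had it at 8.45, without overlap of the libraries. *Col3a1* was at 6.397 and 7.68, and in library 1 the order turned (7.92 and 6.79). In cluster 2 the same split gave 0.746 and 0.765 for the fibrillar sum and 17.0 and 16.6 for the basement membrane sum.

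The genes that make, secrete and receive collagens were counted in 8 lists of 86 genes. A listed gene that passed the minimum only through the cluster in which it was high had to be called there. Examples are *Lum* in cluster 4 and *Gp6* in cluster 6. How many of the calls below rest on this was not counted. For the 14 hydroxylases and glycosyltransferases, which modify the chains in the endoplasmic reticulum, 4 were higher and 1 lower in cluster 0, and 5 higher and 1 lower in cluster 4, where *Plod2* was at 0.977 UMIs per 10,000 against 0.162 in cluster 2. *Plod1* was higher in clusters 0 and 1 (1.15 and 1.37, against 0.442). Of the 10 chaperones and export genes, 1 was higher and none lower in cluster 0, 2 higher and none lower in cluster 4, and 7, 6 and 5 were lower in clusters 3, 5 and 6. *Serpinh1*, the collagen chaperone HSP47, was at 10.3, 7.01 and 11.2 in clusters 0, 1 and 2, 9.18 in cluster 4 and 1.197–1.92 in clusters 3, 5 and 6. It differed by 1.22-fold between clusters 2 and 4, between which the fibrillar sum differed 27.4-fold.

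Among the 6 cross-linking enzymes tested, 2 were higher and none lower in cluster 0, and 4 were higher and 1 lower in cluster 4, with *Loxl1* at 0.288 against 0.000925, *Lox* at 0.224 (0.145, 0.0654 and 0.414 in the libraries) against 0.00214 and *Loxl2* at 1.25 against 0.408. *Pxdn*, which cross-links type IV collagen, was higher in cluster 1 (1.35) than in cluster 2 (0.642) and not called in cluster 4 (0.599). Of the 4 tested procollagen proteinases and enhancers, 2 were higher and none lower in cluster 0, and 2 higher and 1 lower in cluster 4, where *Pcolce* was at 0.980 against 0.0349. Of the 12 tested laminins and partners of the basement membrane, 5 were higher and 1 lower in cluster 0, 3 higher and 4 lower in cluster 4, and 6, 10 and 11 were lower in clusters 3, 5 and 6. *Sparc*, a collagen-binding glycoprotein, was at 23.0, 26.0, 9.91 and 9.34 in clusters 0, 1, 2 and 4, and *Hspg2* (perlecan) at 3.12, 2.81, 2.08 and 0.664.

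Of the 9 tested fibril-associated glycoproteins and proteoglycans, 8 were higher in cluster 4 and none lower, with *Postn* at 1.42 against 0.0151 and *Dcn* at 1.39 against 0.0402. In cluster 0, 5 were higher, led by *Fn1* at 10.35 against 1.23, and 1 lower. In cluster 1, 6 were higher and 1 lower. Of the 8 tested degrading enzymes and inhibitors, *Mmp14* and *Mmp2* were among the 4 higher in cluster 0, where none was lower, 6 were higher and 1 lower in cluster 1, and 3 higher and none lower in cluster 4. Of the 7 tested collagen receptors, 2 were higher and none lower in cluster 0. *Ddr1* and *Ddr2*, kinases bound by fibrillar collagens, were higher in cluster 4 at 0.307 and 0.268, and *Itga1* and *Itga2* were lower. *Gp6*, the platelet collagen receptor, was at 0.832 in cluster 6 and at most 0.00397 elsewhere. It passed the minimum only through cluster 6, so its call there carries no weight of its own. In cluster 1, 4 receptors were higher and none lower, and so were 2 of the hydroxylases and glycosyltransferases and 3 of the chaperones and export genes. The basement membrane list had 3 higher and 1 lower there, the cross-linking list 3 and 2, and the proteinase list 1 and 1. In clusters 3, 5 and 6 each list had more genes lower than higher, except the receptors in cluster 6. These had 3 higher, *Gp6* among them, and 2 lower. All genes leaned to lower levels in clusters 3, 5 and 6, with 23.7%, 18.6% and 20.0% lower and 12.6%, 12.4% and 11.4% higher. Some margins were small, as 1 higher against 2 lower of 4 proteinases and enhancers in cluster 3. Among all genes in clusters 0, 1 and 4, 11.2%, 19.9% and 16.9% were higher and 4.15%, 12.3% and 6.87% lower.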

How the data were processed

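Per the paper's methods, the authors made 10x Genomics 3′ libraries, counted UMIs with Cell Ranger 3.1.0 on mm10 and aggregated the libraries with batch-effect removal. They kept singlets with at least 5,000 UMIs and clustered the cells with the Leiden method. The deposited counts nevertheless hold 90 cells with fewer than 5,000 UMIs. The deposited count table holds whole UMI counts per gene and cell, and the deposited normalized table, per its values, the natural log of 1 plus counts per 10,000 UMIs, which differed by at most 5.3e-15 from the same quantity computed from the counts over the 44 collagen rows. The samples are 3 pools of all time points. No label ties barcode suffixes to pools or cells to times, so the cells were treated as 1 sample and no p-value was computed.

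UMIs were summed per cluster and library and divided by the UMIs of all genes, with exact Poisson and exact binomial 95% intervals that cover counting error only. Ratios to cluster 2 have exact conditional intervals. A group at 0 was set to 3 UMIs. Genes with at least 0.01 UMIs per 10,000 over all cells were compared, and called at 2-fold or more with the same direction in each library. Shares were taken after thinning each cell to 5,000 UMIs, which left out 90 cells. Doublets were not called again, and an alternative left out the 5% deepest cells. By rule, collagens with at least 0.1 UMIs per 10,000 in a cluster were given by value and the others by their range, and in each pathway list at most 4 called genes per comparison were eligible to be named, by level. The minor collagens given by cluster or count were chosen after their values were seen. Members, classes, markers and pathway lists were chosen with earlier results of these data known. Gene positions are from GENCODE M21, and promoter windows from RefSeq. Reads of overlapping or near-identical genes can be split by counting in ways not tested. The ratio and call steps were tested on simulated data. The work was done in Python 3.11.15 with scipy 1.17.1 for intervals, numpy 2.4.6 and pandas 2.3.3 for sums and matplotlib 3.10.9 for plots.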

Additional observations from a re-analysis of the deposited data

How the results depend on the processing

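The alternatives were the deposited normalized values, means over cells, 5,000 UMIs per cell, leaving out the deepest cells or a library, other minimum levels, a 4-fold call and type IV alone. Of the log2 ratios of class sums to cluster 2, 111 moved by less than 1 SD over libraries and 21 by more, and of the counts of collagens called 100 stayed within 1.5 times and 20 did not. At 4-fold, 5 collagens were higher and 0 lower in cluster 0, 1 higher and 2 lower in cluster 1, 1 higher in cluster 3, 1 lower in cluster 4, 11 lower in cluster 5 and 0 higher in cluster 6. With the deposited normalized values, and identically with means over cells, the fibrillar sum was at −0.29 in cluster 1, 4.49 in cluster 4 and −1.76 in cluster 5, basement membrane collagens were at −2.71 and −2.59 in clusters 5 and 6, other collagens were at −2.52 in cluster 5, and 0 collagens were higher in cluster 6. At 5,000 UMIs per cell, basement membrane collagens were at 1.05 in cluster 0, −2.69 in cluster 5 and −2.64 in cluster 6, fibrillar collagens at −0.26 in cluster 1, 4.499 in cluster 4 and −1.75 in cluster 5, other collagens at −2.54 in cluster 5, and 1 collagen was higher in cluster 6. The cause was not tested. At that depth *Col6a2* turned to 1.02 in cluster 0 and 2.62 in cluster 3, *Col14a1* to 1.08 in cluster 3 and *Col9a2* to 0.95 in cluster 6, because clusters left with 0 UMIs were set to 3. Leaving out a library gave 3 to 6 collagens higher and 3 to 6 lower in cluster 1, 0 to 4 higher in cluster 6, and −1.62 to 0.046 for *Col6a2* in cluster 3, which rests on 1 UMI. A minimum of 0.05 left 3 lower in cluster 1 and 9 higher in cluster 4, since fewer genes were tested. With no minimum, 6 were higher in cluster 1, 29 in cluster 4 and 1 in cluster 5. Type IV alone gave 0.997 in cluster 0 and 0.80 in cluster 1. No paired analysis was possible because no result comes from a test and the libraries are not tied to the numbered pools. Ratios within each library entered every call. Levels near those of a few UMIs, as of the 18 collagens under 0.1 UMIs per 10,000 in every cluster, are limited by depth.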
